A study of Danio rerio with 6 samples.

Results

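Thyroid follicular cells take up iodide, build it into thyroglobulin and later recover it, and 7 genes of that route were followed here by name. They were tg, slc5a5, tshr, duox, duox2, IYD and slc26a4, and each name matched 1 of the 32059 rows in the deposited table. The cells came from zebrafish aged 5 months that carried 2 reporters. The transgene Tg(tg:nls-EGFP) places nuclear EGFP under the thyroglobulin promoter, and the allele pax2a:mKO2-Knock-in reports the pax2a locus, whose product is needed for thyroid development. All fish carried both, and by the labels the groups differed in the sort by mKO2. Their libraries also differed in depth and in mitochondrial share, as given below. Libraries of pax2a-high (mKO2-High) cells are called H1, H2 and H3 by their replicate number, and those of pax2a-low (mKO2-Low) cells L1, L2 and L3. The comparison asks how the genes of hormone production differ between sorted cells that were bright and dim for this reporter. The sample titles call both groups TFC. The pax2a-low libraries also held higher levels of markers of another cell type, the ionocyte, as given below. The labels do not tell whether libraries of a group stem from different animals, so each p-value reflects the spread among these libraries, which may be technical.

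The thyroid hormone route starts at the basolateral membrane, where the sodium-iodide symporter Slc5a5 carries iodide into the cell under control of the thyrotropin receptor Tshr. At the apical side iodide passes into the follicle lumen, a step attributed in mammals in part to the anion exchanger pendrin, the product of slc26a4. There a dual oxidase supplies the hydrogen peroxide with which thyroid peroxidase attaches iodine to tyrosines of thyroglobulin. After thyroglobulin is taken back and digested, iodotyrosine deiodinase, the product of IYD, frees iodide from unused iodotyrosines for another round. Thyroid peroxidase was not analysed here.

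Depth differed between the groups, with 18014891 to 35403210 counts in H1 to H3 and 6053741 to 10932845 in L1 to L3. Levels are given as CPM, counts per 1000000 of the library size after TMM scaling in edgeR. A library with 0 counts of a gene may still hold up to 3, for counting error only and with reads taken as separate molecules. This floor is 0.0842 to 0.183 CPM in H1 to H3 and 0.234 to 0.578 CPM in L1 to L3. Mitochondrial rows took 0.799 to 1.17% of the counts in H1 to H3 but 24.1 to 49.0% in L1 to L3. The pax2a transcript, which checks the sort labels, was at 303, 431 and 579 CPM in H1, H2 and H3 and at 2.31, 1.24 and 157 CPM in L1, L2 and L3. The library labelled pax2a-low replicate 3 (L3) therefore stood apart in pax2a, while its mKO2 row held 0 counts. Between the groups neither row reached an edgeR adjusted p under 0.05. The log2 fold change was 3.03 for pax2a (SE 1.75, edgeR adjusted p = 0.595) and 6.2 for mKO2 (SE 2.91, edgeR adjusted p = 0.344). Results that rest on L3 are given with and without it.

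Thyroglobulin, the protein on which the hormones are made, filled a large part of the H1 to H3 libraries. The tg row (ENSDARG00000020084) stood at 199031, 157414 and 238990 CPM in H1, H2 and H3 and at 5295, 3554 and 32404 CPM in L1, L2 and L3. The groups did not overlap, and L3 lay 7.32-fold above the mean of L1 and L2. The difference of 14.4-fold (log2 fold change 3.85, SE 0.92) missed the threshold of 0.05 by edgeR's quasi-likelihood test after Benjamini-Hochberg adjustment over all genes (adjusted p = 0.118). It passed without L3 (log2 fold change 5.42, SE 0.34, edgeR adjusted p = 1.03e-11), without L2 (3.35, edgeR adjusted p = 0.042) and with DESeq2 (3.71, adjusted p = 0.0011). In bulk samples such as these, fewer follicular cells and less RNA per cell cannot be told apart. With mitochondrial rows taken out of the totals, tg made up 19.3 ± 4.54% of the counts in H1 to H3 and 2.18 ± 2.56% in L1 to L3 (SD, n = 3 per group). A two-sided exact permutation test on the share of all counts had p = 0.1, and 3 against 3 libraries cannot go lower (adjusted p = 0.2 over 8 such tests).

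The EGFP reporter reads the tg promoter from a transgene, and its transcripts were set against those of tg itself. Per 1000 tg counts there were 1.26, 1.66 and 1.72 EGFP counts in H1, H2 and H3 and 5.02, 12.99 and 5.42 in L1, L2 and L3. Every pax2a-low library lay above every pax2a-high one in this ratio. A rise relative to tg in pax2a-low libraries was not particular to EGFP. With tg counts as library sizes, edgeR called 24.2% of all genes lower in pax2a-high libraries and 0.016% higher. In CPM, EGFP was 3.72-fold higher in H1 to H3, where tg was 14.4-fold higher, and neither passed (EGFP log2 fold change 1.89, SE 0.68, edgeR adjusted p = 0.182). Without L3, EGFP was 8.46-fold higher and passed (log2 fold change 3.03 with an SE of 0.65, edgeR adjusted p = 0.0051). The difference in ratio did not pass edgeR's test with tg counts as library sizes (log2 difference -2.34, SE 1.58, adjusted p = 0.221), and the two-sided exact permutation p was 0.1, the smallest possible (adjusted p = 0.2).

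**Figure D1:**
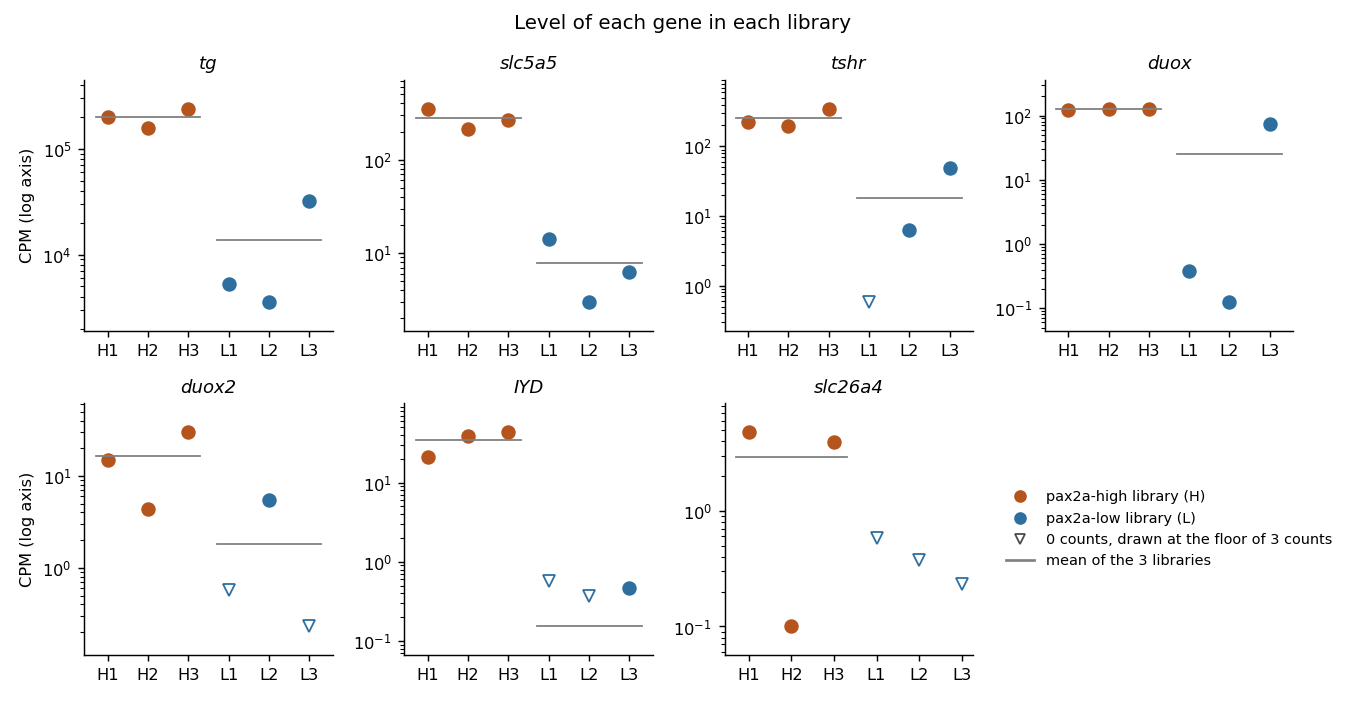
CPM of the 7 genes on log axes in pax2a-high (H1 to H3) and pax2a-low (L1 to L3) libraries, with grey lines at group means and open triangles at the floor of 3 counts where a library had 0 counts. L3 stands far above L1 and L2 for tg (32404 CPM), tshr (48.6 CPM) and duox (73.7 CPM), but not for slc5a5 (6.23 CPM).

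The iodide symporter gene slc5a5 (ENSDARG00000005392) was the 1 member called higher in pax2a-high cells by edgeR with all libraries. It stood at 351, 211 and 268 CPM in H1, H2 and H3 and at 14.1, 2.98 and 6.23 CPM in L1, L2 and L3. The groups lay far apart, and L3, which held the most tg of its group, did not hold the most slc5a5. The rise was 35.8-fold (log2 fold change 5.16, SE 0.77), with an edgeR adjusted p of 0.00086. The call was kept when any 1 library was left out, with edgeR adjusted p of 6e-07 to 0.016. It was not made by limma with quality weights (log2 fold change 5.43, limma adjusted p = 0.087).

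The thyrotropin receptor gene tshr (ENSDARG00000037195), through which pituitary thyrotropin drives hormone production, stood at 227, 197 and 348 CPM in H1, H2 and H3. In L1, L2 and L3 it had 0, 50 and 624 counts, or 0, 6.20 and 48.6 CPM. Receptor transcripts thus ran from undetected to moderate among the pax2a-low libraries, all below the pax2a-high ones. With all libraries the log2 fold change was 3.81 (SE 1.70), at an edgeR adjusted p of 0.388. The test passed without H2 (4.0, edgeR adjusted p = 0.020), H3 (3.50, edgeR adjusted p = 0.018) or L1 (3.25, edgeR adjusted p = 0.040). Without L3 the log2 fold change was 6.32 and missed the threshold (edgeR adjusted p = 0.243).

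The dual oxidase gene duox (ENSDARG00000062632), a source of the hydrogen peroxide used in iodination, had the most even level of the 7 genes among pax2a-high libraries. It stood at 123, 127 and 128 CPM in H1, H2 and H3, a coefficient of variation of 2.0%, against 20.6% for tg, 25.4% for slc5a5, 31.1% for tshr and 34.3% for IYD. In L1, L2 and L3 it had 2, 1 and 946 counts, or 0.386, 0.124 and 73.7 CPM. It was thus nearly absent from L1 and L2 and at 58.6% of the pax2a-high mean in L3. Over all libraries the log2 fold change was 2.34 (SE 1.86, edgeR adjusted p = 0.754). Without L3 it passed (edgeR adjusted p = 2.89e-05). In that fit duox could pass the filter on low counts only through H1 to H3, so its direction was fixed in advance. The ratio of pooled rates, which rests on 3 counts in L1 and L2, was 558 with an exact Poisson 95% interval of 191 to 2706. That interval treats reads as separate molecules and leaves out the spread between libraries, so the uncertainty is wider than it shows.

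The row named duox2 (ENSDARG00000078962) is uncertain in identity. The symbol table used here calls the same identifier DUOXA1, the name of a maturation factor of dual oxidases in mammals, while RefSeq for the GRCz12tu assembly has a gene duox2 next to duox. No role is assigned to it here, and reads of similar or adjacent genes may have been split between rows. It had 242, 86 and 1057 counts in H1, H2 and H3 (14.8, 4.35 and 29.7 CPM) and 0, 44 and 0 counts in L1, L2 and L3 (0, 5.46 and 0 CPM). The groups overlapped, since L2 lay above H2, and of the 6 tested members this held for duox2 alone. The log2 fold change was 3.15 (SE 2.69, edgeR adjusted p = 0.765). Among pax2a-low libraries it did not follow duox, with counts in L2, where duox had 1, and none in L3, where duox had 946.

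Iodide recycling was represented by IYD (ENSDARG00000076056). It stood at 20.8, 38.2 and 42.8 CPM in H1, H2 and H3 and had 0, 0 and 6 counts in L1, L2 and L3. The group means of 33.9 ± 11.6 and 0.156 ± 0.270 CPM (SD, n = 3 per group) came from groups that did not overlap. The filter on low counts asks for enough counts in 3 libraries, which IYD could meet only through H1 to H3. Its lack of overlap and its direction were therefore fixed in advance. Its log2 fold change, the largest of the 6 tested members, was 7.57 (SE 2.56) and did not reach significance (edgeR adjusted p = 0.157). DESeq2 called it (7.43, DESeq2 adjusted p = 0.00010), as did limma (8.22, limma adjusted p = 0.049). Without L3 the pax2a-low group held no count, and IYD was at least 71.4-fold higher, measured against 3 counts in each library (edgeR adjusted p = 0.059).

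The pendrin gene slc26a4 (ENSDARG00000069431), an anion exchanger also known from ion-transporting cells of zebrafish skin, was close to the limit of detection. It had 78, 2 and 140 counts in H1, H2 and H3 (4.76, 0.101 and 3.93 CPM) and 0 counts in L1, L2 and L3. The level in H2 was below the floor of each pax2a-low library, so H2 cannot be told from them. The row failed the filter on low counts and was not tested in the fits across genes. Its mean of 2.93 ± 2.49 CPM in H1 to H3 (SD, n = 3) was at least 7.43-fold higher, measured against 3 counts in each pax2a-low library, a bound that leaves out the spread between libraries.

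Counted together, 6 of the 7 genes passed the filter, 1 (slc5a5) was called higher by edgeR and 0 lower, where 1.12% of all 12524 tested genes were called higher and 1.46% lower. At an unadjusted p under 0.05 there were 3 higher, slc5a5, tg and IYD, beside 9.76% of all genes tested, and 0 lower, beside 4.6%. DESeq2 called these 3 higher (6.89% of its genes) and limma called 1, IYD (0.79%). A filter of 5 CPM gave 2, tg and slc5a5 (0.787%). Leaving out a library gave 1 without H1 (0.268%), 2 without H2 (1.39%), 2 without H3 (1.87%), 2 without L1 (1.71%), 2 without L2 (1.02%) and 3 without L3 (1.58%). A fit with the replicate number as a block gave 3 (3.39%). The median log2 fold change of the 6 was 3.83, beside 0.35 over all genes tested. In 5 of the 6, H1 to H3 all lay above L1 to L3, as they did for 21.4% of all genes tested. For IYD, 1 of these 5, this was fixed by the filter, which it could pass only through H1 to H3. The filter likewise fixed the direction of IYD in the calls and in the median above, and that of duox in the fit without L3.

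**Figure D2:**
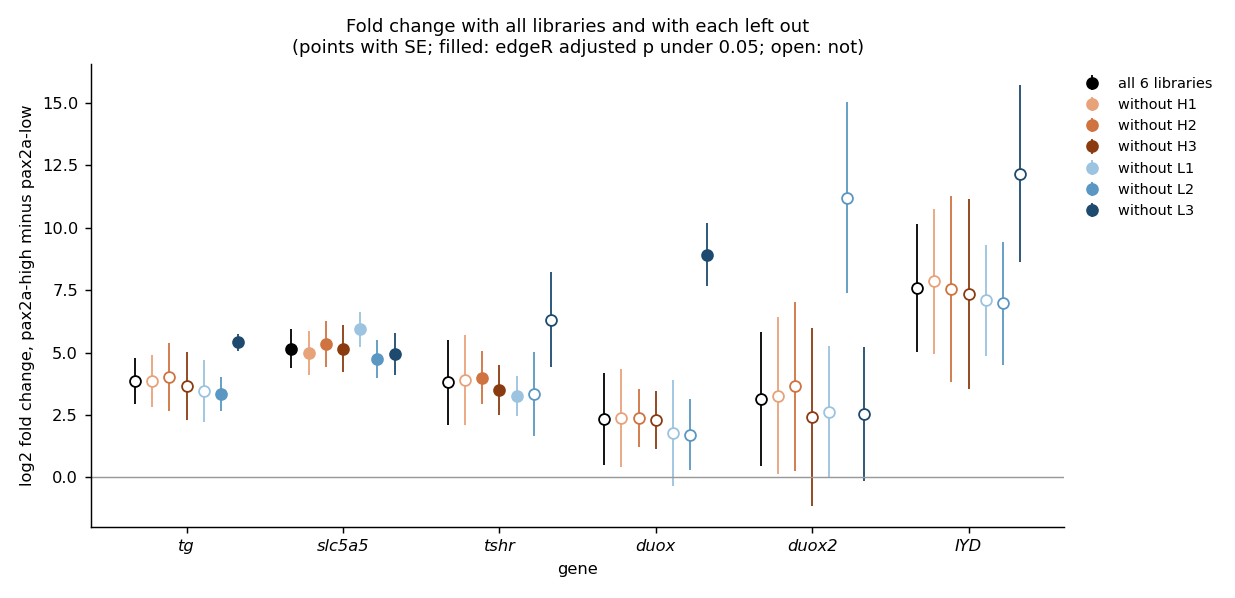
Log2 fold change (pax2a-high minus pax2a-low) with its SE for the 6 tested genes, from all libraries and with each library left out, filled where the edgeR adjusted p was under 0.05. For slc5a5 every point is filled, whereas tg and duox move from 3.85 to 5.42 and from 2.34 to 8.92 without L3.

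Counts per 1000 tg counts ask whether the other genes moved in step with thyroglobulin, library by library. The ratio does not depend on library size, and since genes differ in length it is compared between libraries and not between genes. Among H1, H2 and H3 it was narrow for tshr (1.14, 1.25 and 1.45), slc5a5 (1.76, 1.34 and 1.12) and duox (0.618, 0.807 and 0.534). It was wider for IYD (0.104, 0.243 and 0.179), duox2 (0.0742, 0.0276 and 0.124) and slc26a4 (0.0239, 0.000643 and 0.0164). The highest of the 3 ratios was 1.28 times the lowest for tshr and 1.57 times for slc5a5, against 37.2 times for slc26a4.

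In the pax2a-low libraries the ratios to tg scattered. For slc5a5 they were 2.66, 0.838 and 0.192 in L1, L2 and L3, so L1 lay above the pax2a-high range and the others below it. For tshr they were 0, 1.75 and 1.5, with L1 below that range and the others above it. For duox they were 0.0728, 0.0349 and 2.27, with L1 and L2 below and L3 above. No pax2a-low ratio of these 3 genes fell inside the pax2a-high range. Counting error, with reads taken as separate molecules, was set beside these ratios, and its part in the scatter was not tested. For the 50 tshr counts in L2 the exact Poisson 95% interval was 37.1 to 65.9, beside 32.7 to 41.7 at the pax2a-high ratios. For the 624 tshr counts in L3 it was 576 to 675, beside 474 to 605. For the 24 slc5a5 counts in L2 it was 15.4 to 35.7, beside 32.1 to 50.5. In these cases the ranges overlap. They did not for slc5a5 in L1 (57.2 to 91.8 beside 30.8 to 48.4) and L3 (63.4 to 99.6 beside 467 to 733). Nor did they for tshr in L1 (0 to 3.69 beside 31.3 to 40.0). For duox they were apart in L1, L2 and L3, with 887 to 1008 beside 222 to 336 in L3. The means of pax2a-high and pax2a-low ratios (SD, n = 3 per group) were 1.41 ± 0.326 and 1.23 ± 1.28 for slc5a5, 1.28 ± 0.159 and 1.08 ± 0.945 for tshr and 0.653 ± 0.140 and 0.794 ± 1.28 for duox. The pax2a-low mean of duox rests on L3. On the log2 scale the mean difference, pax2a-high minus pax2a-low, was 0.88 for slc5a5 and 1.84 for duox, so for duox it has the opposite sign to that of the linear means.

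No difference in change from tg passed the test for any of the 5 other tested members. With tg counts as library sizes in edgeR, the log2 difference was 0.20 for slc5a5 (SE 2.53), 0.24 for tshr (SE 2.59), -0.29 for duox (SE 2.79), -2.76 for duox2 (SE 3.07) and 4.55 for IYD (SE 2.95). Their edgeR adjusted p ran from 0.206 to 0.945, with 0 of 5 at an unadjusted p under 0.05 and 0 called by limma. Of all genes in that fit, 0.016% were called higher and 24.2% lower relative to tg, and by limma 0% and 26.5%. Errors of 2.53 to 3.07 log2 units leave room for differences of many fold in either direction. The result therefore does not show that these genes moved alike with tg. Two-sided exact permutation tests gave p = 0.6 for slc5a5 and 0.4 for duox on log2 ratios and 1.0 for both tshr and duox2 on linear ratios (adjusted p of 0.8, 0.64 and 1.0 over 8 tests). For IYD the exact permutation test gave p = 0.1, the smallest possible (adjusted p = 0.2). The test for slc26a4 had the same p, but it compares ratios with libraries without a count, of which L1 and L2 were too shallow in tg to hold 1, and nothing is drawn from it.

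**Figure D3:**
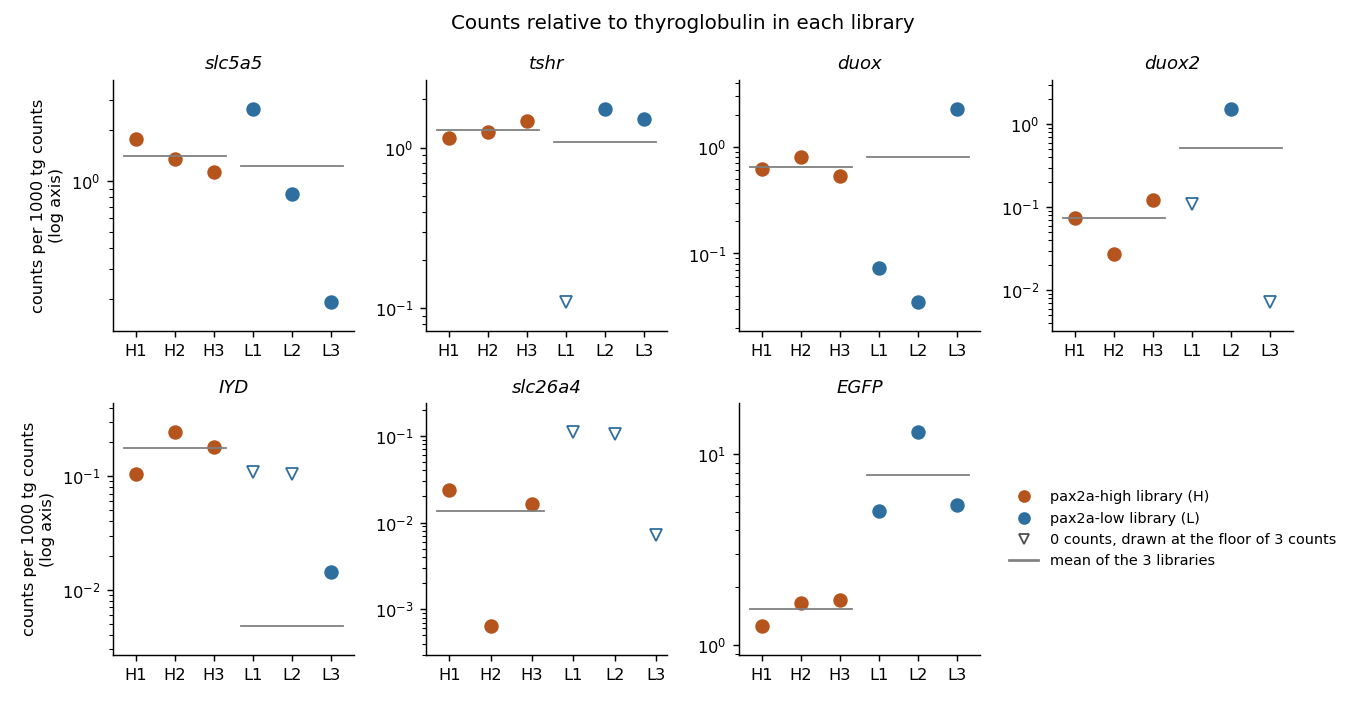
Counts per 1000 tg counts on log axes for the other 6 genes and the EGFP reporter in pax2a-high (H1 to H3) and pax2a-low (L1 to L3) libraries, with group means as grey lines and 0 counts drawn as open triangles at the floor of 3 counts. The pax2a-high libraries cluster for slc5a5 (1.12 to 1.76), tshr and duox, while the pax2a-low libraries spread to either side and all 3 lie above for EGFP.

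The number of tg counts in a pax2a-low library sets what could have been seen of the rarer genes. At the pax2a-high ratios to tg, L1 would hold 31.3 to 40.0 tshr counts and 14.7 to 22.2 duox counts, and it held 0 and 2. L2 would hold 15.3 to 23.1 duox counts, and it held 1. For IYD the same ratios give 2.87 to 6.67 counts in L1 and 2.99 to 6.96 in L2, where an observed 0 allows up to 3, so a shortfall relative to tg was barely detectable at this depth. For slc26a4 they give at most 0.657 and 0.685 counts there, and its absence could not be told from scarce sampling.

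L3 had enough tg, 415881 counts, to separate the genes. At the pax2a-high ratios it would hold 467 to 733 slc5a5 counts and 43.4 to 101 IYD counts, and it held 80 and 6. It would hold 474 to 605 tshr counts and 222 to 336 duox counts, and it held 624 and 946. For pax2a the ratios give 634 to 1139 counts, and L3 held 2014. The duox2 row had 0 counts there, where the ratios give 11.5 to 51.6. Against the pax2a-high mean CPM, its levels were 1.38% for IYD, 2.25% for slc5a5, 16.3% for tg, 18.9% for tshr, 35.9% for pax2a and 58.6% for duox. Transcripts of slc5a5, IYD and duox2 were thus low in L3 beside a larger remainder of tg, tshr and duox. This is 1 library, and its pattern has no replicate check.

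**Figure D4:**
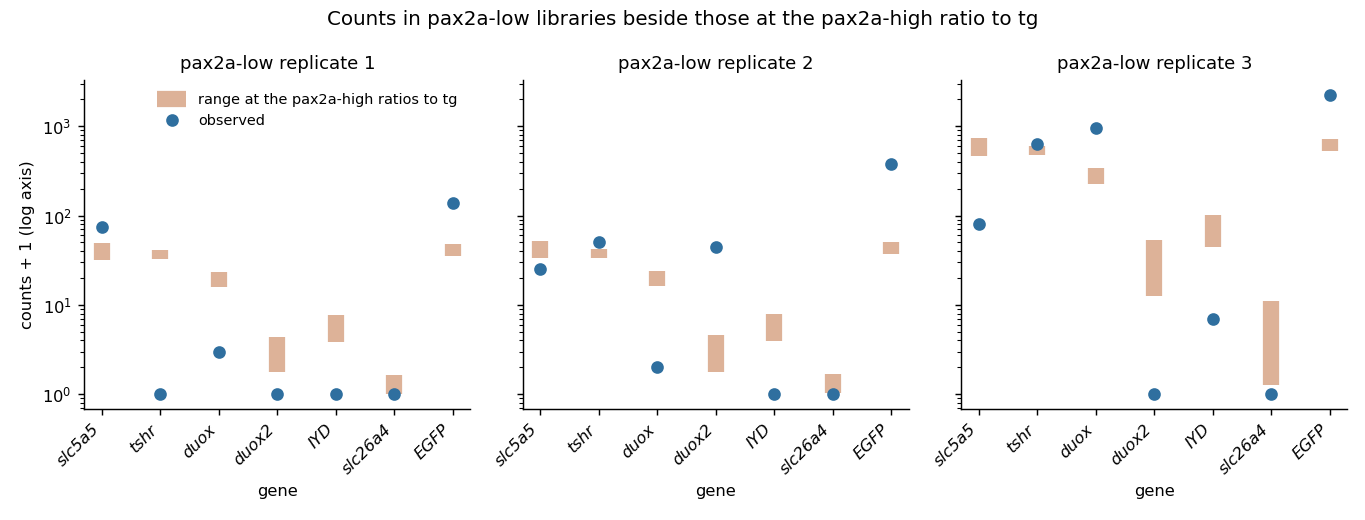
Observed counts (blue points) of 6 genes and EGFP in each pax2a-low library beside the range of counts at the 3 pax2a-high ratios to tg (bars), as counts + 1 on a log axis. In replicate 3, slc5a5 (80) and IYD (6) lie below their bars while duox (946) lies above, and EGFP lies above its bar in all 3 libraries.

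The genes whose levels ran most in parallel with tg were sought by the SD, over the 6 libraries, of the log2 ratio of CPM to tg CPM with 0.5 added to each. Among 10087 genes with a mean of at least 5 CPM, the 8 closest with descriptive names were znf219, kctd3, antxr2b, kcng2, slc39a13, arhgap32b, gli3 and tor4aa, with SDs of 0.305 to 0.472 against a median of 2.91 for all. Each averaged 19.7 to 32.6 CPM in H1 to H3 and had 0 to 2 counts in L1 and L2, so the likeness there rests on counts at the floor, and with 5 added in place of 0.5, 0 of the 8 remained among the closest 8. IYD ranked 151 (SD 1.06), slc5a5 367 (1.27), EGFP 417 (1.32), duox 565 (1.43), tshr 812 (1.62) and duox2 2455 (2.32), and no order among them was tested.

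Of further genes in iodination and iodide handling, 14 of 23 listed had a row of their own and 5 were tested. By edgeR 1 was called higher and 0 lower (median log2 fold change -0.43), beside 1.12% and 1.46% of all genes tested. The gene called was lrp2a, which encodes the endocytic receptor megalin, known in mammals to bind thyroglobulin. It stood at 661 ± 146 CPM in H1 to H3 and 149 ± 70.5 CPM in L1 to L3 (SD, n = 3 per group; log2 fold change 2.15, SE 0.49, edgeR adjusted p = 0.026). Without H1 or L2 the call was lost (edgeR adjusted p = 0.117 and 0.115), as it was with total counts only (0.067), a filter of 5 CPM (0.055) and limma (0.071). Per 1000 tg counts, lrp2a had 3.51, 3.18 and 3.28 counts in H1, H2 and H3. In L1, L2 and L3 it had 26.9, 23.1 and 6.87, so relative to tg each pax2a-low library lay above the pax2a-high range. Of all genes in the edgeR fit relative to tg, 24.2% were called lower in pax2a-high libraries. The oxidase subunit gene cyba was at 26.1 ± 11.2 and 4.42 ± 4.23 CPM, the chloride channel gene ano1 at 15.6 ± 11.8 and 48.9 ± 58.5 CPM and the oxidase gene nox1 at 2.27 ± 3.34 and 26.3 ± 29.3 CPM (SD, n = 3 per group), and none of these passed.

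Of the genes of hormone activation and export, 7 of 12 rows were tested. By edgeR 1 was called higher and 0 lower (median log2 fold change 1.12), beside 1.12% and 1.46% of all genes tested. The gene called was dio1, a deiodinase gene (log2 fold change 6.01, SE 1.32, edgeR adjusted p = 0.020). It had 1202, 2183 and 7233 counts in H1, H2 and H3 and 0, 34 and 22 in L1, L2 and L3. Without H1, H3 or L2 the call was lost (edgeR adjusted p = 0.062, 0.084 and 0.071), as it was with a filter of 5 CPM (0.058) and limma (0.116). Per 1000 tg counts, dio1 had 0.369, 0.701 and 0.850 counts in H1, H2 and H3 and 0, 1.19 and 0.0529 in L1, L2 and L3, so L2 lay above the pax2a-high range and the others below it. The inactivating deiodinase gene dio3b was at 358 ± 129 and 104 ± 16.4 CPM, the amino acid transporter heavy chain gene slc3a2b at 140 ± 77.1 and 64.1 ± 31.6 CPM and the light chain gene slc7a8a at 8.85 ± 14.3 and 100.3 ± 87.3 CPM (SD, n = 3 per group), with none passing.

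Of the genes of thyrotropin receptor signalling, 19 of 26 rows were tested. The list holds G-protein and cyclic AMP genes and also the hormone genes tshba, gpha2 and gphb5, which were not tested. By edgeR 0 were called higher and 1 lower (median log2 fold change 1.09), beside 1.12% and 1.46% of all genes tested. At an unadjusted p under 0.05, 2 were higher and 1 lower, beside 9.76% and 4.6%. DESeq2 called 1 higher and 2 lower, beside 820 and 511 of 11909 genes. With limma 0 were higher and 1 lower, beside 99 and 277 of 12524. The gene called lower by edgeR was the adenylate cyclase gene adcy6b (edgeR adjusted p = 2.06e-06). It had 0 counts in H1 to H3 and 2039, 1955 and 4897 in L1, L2 and L3. It could pass the filter on low counts only through L1 to L3, so its direction was fixed in advance. The protein kinase A regulatory genes prkar1aa (133 ± 56.4 and 28.1 ± 28.2 CPM) and prkar2aa (111 ± 20.3 and 45.5 ± 33.3 CPM) and the cyclase gene adcy9 (115 ± 35.3 and 40.5 ± 35.1 CPM) did not pass (SD, n = 3 per group).

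Of 6 tested thyroid transcription factor genes 0 passed by edgeR (median log2 fold change 2.50). At an unadjusted p under 0.05 there were 3 higher, beside 9.76% of all genes tested. DESeq2 called 1 higher (6.89% of its genes) and limma 0 (0.79%). Without L3 there were 3 called higher by edgeR (1.58% of all genes in that fit), and without H2 there were 2 (1.39%). The factor gene pax8 was at 333 ± 139 CPM in H1 to H3 and 84.4 ± 87.3 CPM in L1 to L3, and nkx2.4b, a relative of mammalian Nkx2-1, at 140 ± 31.8 and 12.4 ± 17.5 CPM (SD, n = 3 per group). The list also holds pax2a, on whose reporter the cells were sorted.

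Among markers of other cell types, the summed levels of ionocyte and macrophage markers did not overlap between the groups. Ionocytes are the ion-transporting cells of fish gill and skin. Of their 15 tested markers, 7 were called lower in pax2a-high cells by edgeR and 0 higher, beside 1.46% and 1.12% of all genes tested. Among the 7, foxi3b, atp1b1b, ca15a and rhbg had 0 to 4 counts in each pax2a-high library. They could pass the filter on low counts only through L1 to L3, so their direction was fixed in advance. At an unadjusted p under 0.05, by DESeq2 or by limma, 0 were higher. The direction was lower for 14 of the 15 and higher for 1, atp1a1a.1 (399 CPM in H1 to H3 and 328 CPM in L1 to L3, edgeR adjusted p = 0.944). The summed level of 24 marker rows was 309 to 592 CPM in H1 to H3 and 7531 to 10560.4 CPM in L1 to L3. Most of the L1 to L3 level came from atp1a1a.2 (mean 3414 CPM) and atp1b1b (2519 CPM). Other markers were uneven among L1 to L3. In L2, slc12a10.2, clcn2c and slc4a4b had 16500, 5667 and 8926 counts, against 2 to 129 in L1 and L3. Among these rows 8 had 0 counts in all of H1 to H3. The share of all rows for which this held was not counted. Each of H1 to H3 had counts in 12333 to 19550 of the 32059 rows, so nothing is drawn from the 8 as a number. Of the 8, ca15a and rhbg had counts in each of L1 to L3, whereas gcm2 had 0 in L1. In L3, foxi3a, rhcgb, slc12a10.3 and slc4a1b had 0, and foxi1 had 0 in L2 and L3. None of the genes with such a 0 in a pax2a-low library was tested. The libraries with the higher ionocyte level were those with adcy6b counts, and they held 0 counts of slc26a4. Any gene with 0 counts throughout a group lines up with the ionocyte level in such a way. Whether ionocytes were a source of adcy6b or slc26a4 counts was not tested. Macrophage markers summed over 11 rows to 20.9 to 170 CPM in H1 to H3 and 576 to 1505 CPM in L1 to L3. Most of the L1 to L3 level came from cd74a (mean 570 CPM), cd74b (299 CPM) and mpeg1.2 (96.1 CPM). Of 5 tested rows 4 were lower and 1, ptprc, higher (means of 7.16 CPM in H1 to H3 and 1.87 CPM in L1 to L3). By edgeR 0 of the 5 passed. At an unadjusted p under 0.05, 3 were lower, beside 4.6% of all genes tested. DESeq2 called 3 lower, beside 511 of 11909 genes, and limma 2, beside 277 of 12524. The summed levels of epidermis, endothelium, fibroblast and erythrocyte markers overlapped between the groups. The part of the ionocyte and macrophage levels, and of the mitochondrial share, in the lower levels of tg, slc5a5, tshr, duox and IYD was not tested.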

How the data were processed

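The deposited table holds raw read counts per gene from the authors, for 6 libraries of sorted cells. The submitters' processing notes name HISAT2, featureCounts and GRCz11, and versions and the strand setting are not given in the sources used here. Counts above 0 were even in 67.8 to 89.0% of rows per library, and no molecular identifiers are mentioned, so reads are not separate molecules. Intervals and floors treat reads as separate, so they may understate even the counting error, and they leave out the spread between libraries.

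Groups and replicate numbers came from the titles. The main test was edgeR 4.0.16 in R 4.3.3 (filterByExpr, TMM, robust quasi-likelihood fit on group alone), adjusted over all 12524 genes tested, with standard errors taken from the F statistic. A second fit used tg counts as library sizes. Exact permutation tests used SciPy 1.17.1. Alternatives were other scalings and filters, DESeq2 1.42.0, limma 3.58.1 (voom with quality weights), a replicate block and leaving out each library. The fit was tested on simulated counts. Members and gene lists were chosen with earlier results of these data known. The text names every member, the 8 genes most like tg, and from each pathway list the genes past the test and the 3 others with the highest mean CPM. The EGFP and mKO2 rows, and the single ionocyte markers, were chosen after their values were seen. List genes were found by the table's names or a symbol table. Sequences and coordinates were not used here.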

Additional observations from a re-analysis of the deposited data

How the results depend on the processing

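The direction of the 6 tested members held in all 14 alternative fits, but calls did not. The slc5a5 call was kept in 13 and lost with limma. In 14 fits tg was called in 4, tshr in 4, duox in 2, IYD in 2 and duox2 in 0. Members called higher numbered 1 with all libraries, 2 with a filter of 5 CPM in 3 libraries, 3 with DESeq2, 3 with the replicate block and 1 to 3 with a library left out. The cause was not tested. Over all genes, 140 were higher and 183 lower. The higher genes numbered 77 with total counts only, 328 without a filter, 73 with 5 CPM in 3 libraries, 820 with DESeq2 and 40 to 270 with a library left out. The lower ones numbered 299 without a filter, 511 with DESeq2, 277 with limma and 120 to 253 with a library left out. DESeq2 size factors moved the median log2 fold change by -0.10 and total counts only by -0.19, against values of 2.06 or more for the members.

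With the replicate block 425 genes were higher, among them slc5a5, tshr (edgeR adjusted p = 4.61e-06) and duox (edgeR adjusted p = 0.0023), while the tg value was 4.57 (edgeR adjusted p = 0.098). The block also called EGFP (2.33, edgeR adjusted p = 0.011) and 3 thyroid transcription factor genes. Labels of the count columns give each pax2a-high library a set number shared with 1 pax2a-low library, without saying what a set is. Deviations from the group means correlated weakly but positively between same-numbered libraries (r of 0.038, 0.048 and 0.057 over 12524 genes). Between differently numbered libraries r was -0.049 to -0.006, so each library correlated best with its own number. Such deviations sum to 0 within a group, so these values depend on one another and are not separate signs of pairing. The main fit did not take the numbers as pairs, and whether they mark pairs is not settled here. In the same block relative to tg 0 genes were higher and 1251 lower, and duox and duox2 turned to 2.18 and 4.49.

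Relative to tg, 2 genes were higher and 3036 lower. The higher ones numbered 0 without a filter, 177 with 5 CPM in 3 libraries, 0 with limma and 0 with any library left out, and the lower ones 0 to 3874 with a library left out, where 0 was without pax2a-low replicate 2. With limma duox and duox2 turned to 2.27 and 0.81. With a library left out the log2 difference relative to tg ran from -0.31 to 1.46 for slc5a5, -0.34 to 0.76 for tshr, -0.86 to 3.60 for duox and -3.35 to 10.85 for duox2, so their directions are unsettled. The difference in tg share ran from 15.1 to 19.5 percentage points. Differences in counts per 1000 tg counts ran from -0.11 to 1.79 (log2) for slc5a5, -0.342 to 0.531 for tshr, 0.66 to 3.67 (log2) for duox, -0.693 to 0.0754 for duox2, 0.137 to 0.206 for IYD and 0.00855 to 0.0202 for slc26a4. Of the 8 genes most like tg, 7 were shared with total counts only and 0 with a pseudocount of 5.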
